A study of Mus musculus with 6 samples.

Results

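Immediate early response genes were compared between E18.5 fetal and adult basal mouse mammary cells. The 40 members are genes whose transcription can start within minutes of a growth factor, stress or cytokine signal, without new protein synthesis. They were identified on the arrays by the transcript accession of their probes, which gave 45 probes for all 40 genes, of 20656 genes with a matched probe. The samples were RNA of cells sorted straight from the mammary gland of female C57Bl6J mice, with 3 biological replicates of each population and 1 one-color Agilent SurePrint G3 Mouse GE array per replicate. The fetal cells, from embryonic day 18.5, were CD31-CD45-Ter119-EpCAM++CD49f+, and the adult cells, from animals aged 8 to 12 weeks, were CD31-CD45-Ter119-BP-1-EpCAM+CD49f+. CD31, CD45 and Ter119 remove endothelial and blood cells, BP-1 removes adult stromal cells, and EpCAM with CD49f (integrin alpha 6) selects epithelial cells. According to the methods of the study, adult glands were digested overnight and fetal glands for a much shorter time, so that developmental stage and time in enzyme cannot be told apart in these samples. A sorted population is also a mixture, and a smaller share of cells that contain a transcript cannot be told apart from less of it in each cell.

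The proteins of these genes act as a relay. Signals from receptors pass through MAP kinases, NF-kB and other routes to factors that already sit at the DNA, such as SRF with its TCF and MRTF partners, which bind the CArG box, and CREB, which binds the CRE. The first genes to respond encode further transcription factors (the AP-1 subunits, the EGR zinc finger proteins, the NR4A orphan nuclear receptors and some KLF proteins). Others encode inhibitors that shut the signal off, such as the DUSP phosphatases, which inactivate MAP kinases, and ZFP36, which destabilizes AU-rich mRNAs. Many of these transcripts are short-lived, and several are known to be induced when a tissue is dissociated into single cells.

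Values below are log2 signals after quantile normalization of the 6 arrays, and a log2 fold change is the fetal minus the adult basal mean of a probe. A probe was called when the adjusted p of limma's moderated test was at most 0.05 and the absolute log2 fold change was at least 1, which is a 2-fold difference. Holm's adjustment, as used in the study, and the less strict Benjamini-Hochberg adjustment are both given, each taken over all 20442 probes tested. Every member was well above background on all 6 arrays and passed the low-signal filter, Egr3 through its fetal signal only, so none is missing from the counts.

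Most of the immediate early genes had more signal in the fetal cells, but not all subfamilies and not all members of a subfamily did. With Benjamini-Hochberg adjustment 19 of the 40 members (47.5%) were higher in fetal cells and 1 (2.50%), Gadd45a, was lower. Of all probes tested, 16% were called on the fetal side and 14.0% on the adult side by the same limits, 30.0% in all. With Holm adjustment 8 members (20%) were higher in fetal cells, namely Fosb, Nr4a1, Klf2, Klf6, Dusp5, Dusp6, Btg2 and Nfkbia, and Gadd45a was again the 1 higher in adult basal cells. The shares of all probes were 5.92% and 5.18%, or 11.1% in all. The median log2 fold change of the 40 members was 0.91, whereas that of all tested probes was -0.03. The 3 fetal values lay above the 3 adult basal values for 26 members and below them for 6, and the groups overlapped for 8; without overlap were 34.1% and 35.0% of all probes, or 69.0% in all. The members of a family are not replicates of a condition, and no test was made over the list or between subfamilies.

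Whichever array was left out, fewer of all probes were called with Holm adjustment, between 950 and 2014 against 2269. The number of members called also fell in each of these fits. It fell from 9 to 4 without fetal replicate 1, to 3 without fetal replicate 2, to 4 without fetal replicate 3, to 5 without adult basal replicate 1, to 7 without adult basal replicate 2 and to 4 without adult basal replicate 3. Klf2, Klf6 and Dusp6 were called in each of these 6 fits. Gadd45a lost its Holm call in all 6, while its log2 fold change stayed between -1.64 and -1.51. Over 16 alternative fits, which include these 6, Fosb kept the Holm call in 14, Dusp5 in 10, Nr4a1, Btg2 and Nfkbia in 7 each and Gadd45a in 6. Outside the Holm calls, Fos, Jund, Egr1 and Zfp36 entered them with the normexp background correction (Holm-adjusted p = 0.018, 0.018, 0.0052 and 0.019), with an offset before log2 and with a variance trend. With Benjamini-Hochberg adjustment the number was between 20 and 22 in the 6 fits with 1 array left out, and 19 of the calls were fetal in each of those 6. The calls higher in adult basal cells then numbered 2 without fetal replicate 1, 2 without fetal replicate 3 and 3 without adult basal replicate 1.

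**Figure D1:**
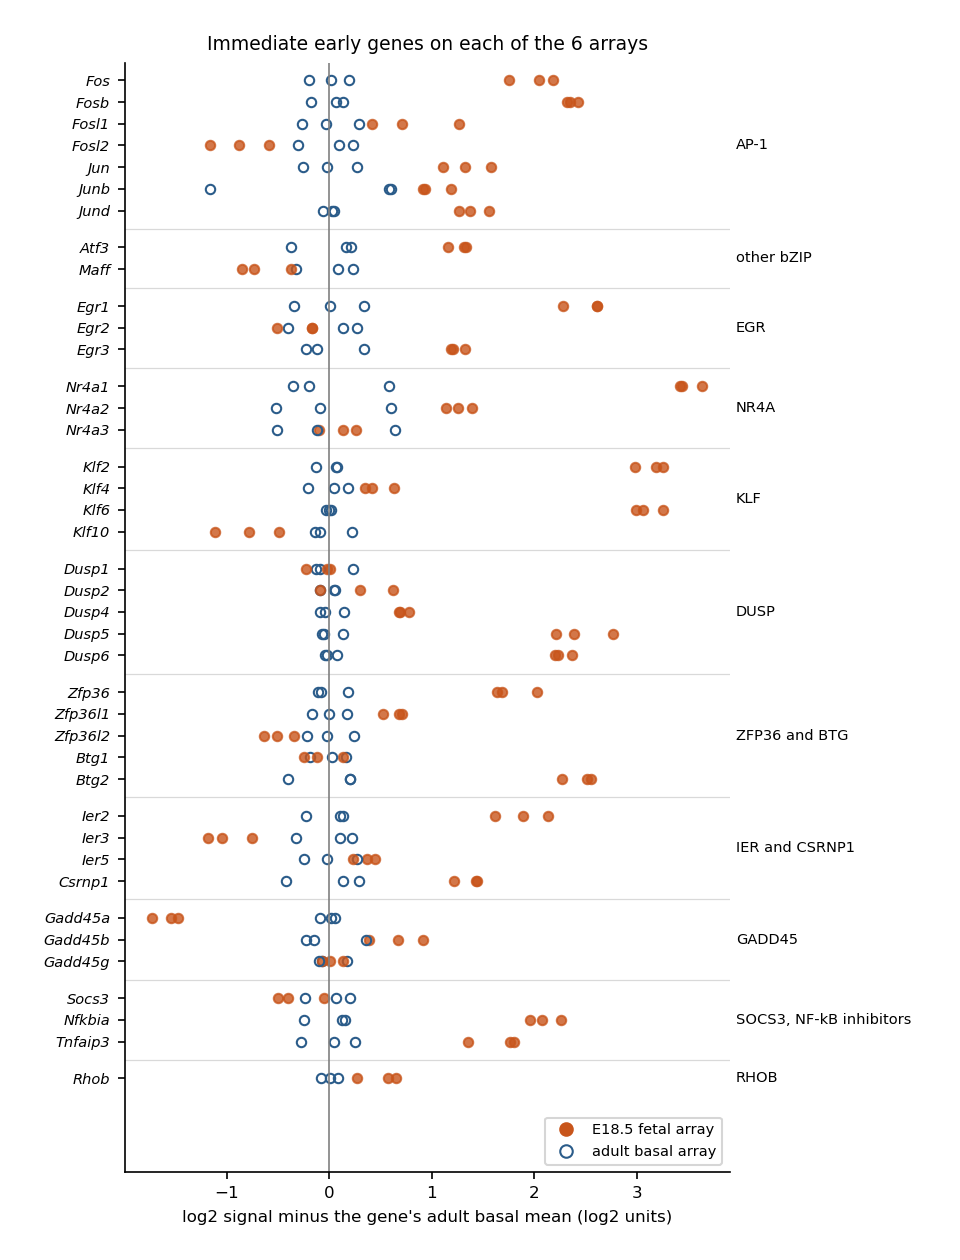
Each point is 1 array, plotted as its log2 signal minus the mean of the 3 adult basal arrays for the same gene, for the main probe of each of the 40 members, grouped by subfamily. Filled points are fetal and open points adult basal arrays; the fetal points lie to the right of all adult basal points for 26 members and to the left for 6.

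Cell type markers differed strongly between the populations, and their part in the differences of immediate early genes was not tested. The adult cells carried the signature of contractile basal cells. Of 11 basal markers, 8 were called higher in the adult cells with Holm adjustment, among them Acta2 (smooth muscle actin, log2 fold change -4.07), Krt5 (-3.90) and Myh11 (smooth muscle myosin, -8.63). The summed signal of the basal list, in which Acta2 was the brightest, was 110000, 101000 and 91200 on the fetal and 1110000, 1060000 and 1070000 on the adult arrays. Krt14 (-1.20, Benjamini-Hochberg-adjusted p = 0.077) and Trp63 (-0.08, adjusted p = 0.52), which encodes the basal regulator p63, were not called. Vim, which encodes vimentin, went the other way and was called higher in fetal cells with Benjamini-Hochberg adjustment only (1.15, adjusted p = 2.8e-05). Of 10 luminal markers tested, 5 were called higher in fetal cells with Holm adjustment, among them Elf5 (7.55) and Kit (4.0). Krt19 (-1.22, adjusted p = 0.00041) was called higher in adult basal cells with Benjamini-Hochberg adjustment only, and Prlr differed by -0.35 (adjusted p = 0.023). The summed signal of that list, in which Krt18 was the brightest, was 245000, 256000 and 190000 in fetal and 129000, 123000 and 122000 in adult basal cells. All 11 basal markers and 10 of the 11 luminal markers were well above background on all 6 arrays. Csn3 was under that limit in the adult cells and at least 7.87-fold higher in fetal cells, and passed the low-signal filter through its fetal signal only.

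Markers of other cell types also gave signal, the source of which was not tested. None of 7 leukocyte markers was called by limma with either adjustment. At an unadjusted p under 0.05, a limit that most of all tested probes passed, there was 1, Adgre1, which differed by -0.42 (Benjamini-Hochberg-adjusted p = 0.031). Ptprc, which encodes CD45, differed by -0.31 (adjusted p = 0.30), and the summed leukocyte signal, mostly Itgam, was 35500, 29900 and 27200 in fetal and 25300, 34700 and 27700 in adult basal cells. The endothelial Pecam1, which encodes CD31, differed by -0.14 (adjusted p = 0.33) and Cdh5 by -2.70 (adjusted p = 0.0070), and 2 of the 5 endothelial genes tested were called, both higher in adult cells and with Benjamini-Hochberg adjustment only. The summed signal of the 6 endothelial genes, in which Kdr was the brightest, was 14200, 12800 and 14800 in fetal and 13700, 14500 and 12300 in adult basal cells. Fibroblast markers were brighter in the adult cells, with sums of 5460, 5740 and 7060 in fetal and 16100, 18500 and 26600 in adult basal cells, most of it from Col1a2. Of these 7 genes, Dcn (-3.78) and Pdgfrb (-4.34) were called with Holm adjustment and 3 with Benjamini-Hochberg adjustment. The hemoglobin gene Hbb-bt was 6.33, 9.28 and 9.29 on the fetal arrays and under the well-above-background limit on each adult array, at least 21.3-fold higher in fetal cells (adjusted p = 0.00096). Hbb-bt passed the low-signal filter through its fetal signal only. Hba-a1, the brighter of the 2 hemoglobin genes tested, was 9.02, 10.06 and 9.71 against 8.75, 9.93 and 8.71, with overlapping groups (0.47, adjusted p = 0.33). Krt10, an epidermal keratin and the brightest of the 4 epidermal genes tested, was higher in fetal cells by 1.47 (Holm-adjusted p = 0.022), and 3 of those 4 were called with Benjamini-Hochberg adjustment. Of the salivary gland list, Smgc reached the well-above-background limit on none of the arrays, and Bhlha15, its brightest gene, differed by -3.73; both salivary genes tested were called higher in adult basal cells with Benjamini-Hochberg adjustment.

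The AP-1 subunits pair through leucine zippers and bind TGANTCA sites as Fos-Jun or Jun-Jun dimers. Of the 7, 4 were called higher in fetal cells with Benjamini-Hochberg adjustment (Fos, Fosb, Jun and Jund), and 1 of them, Fosb, with Holm adjustment. Their median log2 fold change was 1.34. Fosb was 12.86, 12.89 and 12.97 in fetal cells and 10.67, 10.36 and 10.60 in adult basal cells. The groups were far apart relative to their spread, and Fosb was 5.14-fold higher in fetal cells (log2 fold change 2.36, SE 0.12, Holm-adjusted p = 0.0025). Fos, the founding member, was 14.91, 15.21 and 15.34 in fetal and 13.35, 12.96 and 13.18 in adult basal cells. Its difference of 1.99 (SE 0.15) missed the Holm limit (adjusted p = 0.058) and passed with Benjamini-Hochberg adjustment (adjusted p = 2.8e-05).

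The Jun genes encode the partners that Fos proteins need for binding. Jun was 16.34, 16.60 and 16.13 in fetal and 15.00, 14.76 and 15.29 in adult basal cells, a difference of 1.34 (SE 0.18, Benjamini-Hochberg-adjusted p = 0.00041). Jund, which is generally the least inducible of the Jun genes, was 15.73, 16.02 and 15.83 against 14.50, 14.40 and 14.49. Jund differed by 1.40 (SE 0.11), with a Holm-adjusted p of 0.069 and a Benjamini-Hochberg-adjusted p of 3.2e-05. Junb was 10.07, 10.09 and 10.35 in fetal and 9.76, 7.99 and 9.74 in adult basal cells. Adult basal replicate 2 stood far below the other two, and the difference of 1.00 (SE 0.45) was not called (adjusted p = 0.092); it was 0.42 without that array. Blocks on slide (1.27, adjusted p = 0.030) and on replicate number (adjusted p = 0.046) brought Junb within the Benjamini-Hochberg limits.

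The Fos-related antigens were not called with either adjustment. Fosl1, which encodes Fra-1, was 10.68, 10.12 and 9.83 in fetal and 9.70, 9.14 and 9.38 in adult basal cells. The groups did not overlap, but the difference of 0.81 (adjusted p = 0.021) was under the fold limit. Fosl2, which encodes Fra-2, had the opposite sign, with 12.58, 12.29 and 12.00 in fetal and 12.86, 13.26 and 13.40 in adult basal cells. Both of its probes were brighter on every adult basal array, by 0.88 and 0.49 on the log2 scale, with adjusted p values of 0.0056 and 0.022. Leaving out fetal replicate 1 or adult basal replicate 1 carried the difference of Fosl2 past the fold limit, to -1.02 and -1.03.

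The other basic leucine zipper factors on the list behaved differently from each other. Atf3, a stress-induced factor that can dimerize with Jun proteins, was 14.68, 14.83 and 14.85 in fetal and 13.14, 13.73 and 13.68 in adult basal cells. It was 2.41-fold higher in fetal cells (log2 fold change 1.27, Benjamini-Hochberg-adjusted p = 0.00046). Maff, a small Maf protein without an activation domain, was 12.97, 13.33 and 12.86 in fetal and 13.38, 13.79 and 13.94 in adult basal cells. Every adult basal array was brighter for Maff, and the difference of -0.65 (adjusted p = 0.018) was under the fold limit.

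RefSeq promoter windows of the GRCm38.p6 assembly, from 250 bases before to 50 bases after each annotated start, were given for 33 of the 40 members. They were searched on both strands for short motifs of the factors that act on immediate early genes. The CRE, TGACGTCA, was in the windows of 3 members (9.09%) and of 2.03% of all 27025 genes with a window. The CArG box was in those of 3 members (9.09%) and of 1.81% of all genes, the AP-1 motif TGANTCA in 3 (9.09%) and 8.97%, and TATAAA in 9 (27.3%) and 15.7%. A form of the NF-kB site (GGG, any 2 bases, TTTCC) was added after the values of the members were known and was in 3 members (9.09%) and 1.89% of all genes. A match describes the letters of the window and is not a measured binding site. The stretches shown here and with the other subfamilies lie before the start and are those of the members with a CRE, CArG or NF-kB motif, so that their letters can be set beside the measured differences. Maff holds a CRE (chr15:79347451-79347519, plus strand), in capitals.

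Maff: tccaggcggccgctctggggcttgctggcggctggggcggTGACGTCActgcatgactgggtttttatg

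The EGR proteins are zinc finger factors that bind GC-rich DNA, and Egr1 is a standard readout of MAP kinase signalling through SRF. Of the 3, Egr1 and Egr3 were called higher in fetal cells with Benjamini-Hochberg adjustment and neither with Holm adjustment. Egr1 was 15.32, 15.65 and 15.65 in fetal cells and 13.38, 12.69 and 13.05 in adult basal cells. It was 5.64-fold higher in fetal cells (log2 fold change 2.50, SE 0.19), with a Holm-adjusted p of 0.055 and a Benjamini-Hochberg-adjusted p of 2.7e-05. Egr3 was 6.67, 6.78 and 6.65 against 5.80, 5.34 and 5.23. The groups of Egr3 were apart on a low signal, by 1.24 (adjusted p = 0.00036). Its adult mean of 5.46 was under the low-signal cut of 5.95, so it passed that filter through the fetal cells alone, the 1 member to do so. With the normexp background correction its difference was 0.63, and its Benjamini-Hochberg call held in 14 of 16 alternative fits. Egr2, known from Schwann cell myelination, was 12.97, 13.31 and 13.31 in fetal and 13.08, 13.75 and 13.61 in adult basal cells. The groups overlapped, and Egr2 differed by -0.29 (95% interval -0.75 to 0.17, adjusted p = 0.24). Its window holds a CArG box (chr10:67537757-67537846, plus strand), in capitals.

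Egr2: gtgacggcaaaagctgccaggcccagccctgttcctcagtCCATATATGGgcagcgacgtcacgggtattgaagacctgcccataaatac

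The NR4A receptors are orphan nuclear receptors whose activity is set mainly by how much of them is made. Their 3 genes separated. Nr4a1, also called Nur77, was 17.15, 17.17 and 17.37 in fetal cells and 13.37, 14.31 and 13.53 in adult basal cells. No other member differed by as much: Nr4a1 was 11.3-fold higher in fetal cells (log2 fold change 3.50, SE 0.24, Holm-adjusted p = 0.026). Nr4a2 (Nurr1) was 11.10, 11.22 and 11.35 against 9.44, 10.56 and 9.87. Its difference of 1.27 was called with Benjamini-Hochberg adjustment (adjusted p = 0.0043), and a second probe gave 1.28. Nr4a3 (Nor1) was 7.43, 7.07 and 7.30 in fetal and 6.66, 7.81 and 7.05 in adult basal cells. Here the groups overlapped, with a difference of 0.10 (95% interval -0.56 to 0.75, adjusted p = 0.78).

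Adult basal replicate 2 was the brightest adult array for all 3 NR4A genes, and the dimmest for 6 of the 7 AP-1 subunits, all but Fosl2, and for Egr1. The spread of the NR4A genes among adult arrays, with a median SD of 0.56 (n = 3), was wider than the median of all tested probes, 0.18, whereas their fetal spread, 0.13, was close to the 0.12 of all probes. Over all 40 members adult basal replicate 2 was highest for 16 and lowest for 17 of its group. It was the only adult basal array on the second of the 2 slides.

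Slides held both populations, which allowed the difference to be taken within each. The first slide held fetal replicate 1 with adult basal replicates 1 and 3, and the second fetal replicates 2 and 3 with adult basal replicate 2; the slides were scanned at separate times. The median difference of the 40 members was 0.99 on the first slide and 0.93 on the second, and 37 had the same sign on both. The 3 exceptions were Nr4a3 (0.58 and -0.62), Gadd45g (0.01 and -0.10) and Socs3 (-0.63 and 0.02). AP-1 subunits differed by a median of 1.20 and 1.61 on the 2 slides, NR4A genes by 1.44 and 0.73, KLF genes by 1.81 and 1.66 and DUSP genes by 0.84 and 0.54. The single gene Egr1 differed by 2.10 and 2.96. Junb showed a wide gap between slides, 0.32 against 2.23. Of the members called with Holm adjustment, Nr4a1 (3.70 and 2.96) and Nfkbia (1.83 and 2.42) differed more between slides than Klf6 (3.07 and 3.11) and Btg2 (2.37 and 2.34). In a fit blocked on slide, Btg2, Nfkbia and Gadd45a lost the Holm call (Holm-adjusted p = 0.12, 0.13 and 0.18) and the other 6 kept it. The log2 fold changes of Btg2, Nfkbia and Gadd45a stayed about as large in that fit, at 2.36, 2.13 and -1.57.

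**Figure D2:**
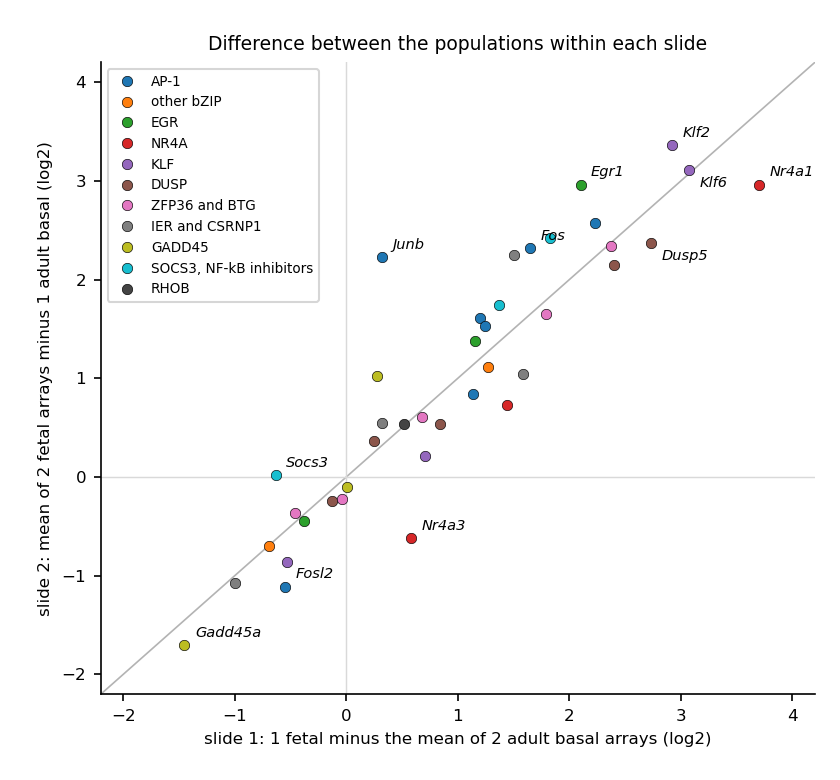
Each point is 1 member, with its fetal minus adult basal difference on the first slide on the horizontal axis and on the second slide on the vertical axis, both in log2 units, colored by subfamily. The diagonal marks equal differences; Junb (0.32 and 2.23) and Nr4a3 (0.58 and -0.62) lie away from it, and 37 of 40 members have the same sign on both slides.

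The KLF factors bind GC-rich and CACCC boxes through zinc fingers. Klf2 and Klf6 were called higher in fetal cells with both adjustments, Klf4 and Klf10 with neither, and the median of the KLF genes was 1.79. Klf6, a widely expressed regulator of growth, was 16.12, 16.32 and 16.05 in fetal cells and 13.06, 13.08 and 13.03 in adult basal cells. It was 8.61-fold higher in fetal cells (log2 fold change 3.11, SE 0.11, Holm-adjusted p = 0.00021). Klf2, known as a quiescence and shear stress factor of lymphocytes and endothelium, was 9.99, 10.20 and 10.27 against 7.07, 6.88 and 7.08. Klf2 was 8.84-fold higher in fetal cells (log2 fold change 3.14, SE 0.12, Holm-adjusted p = 0.00039).

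Klf4, a factor of epithelial differentiation and of reprogramming to pluripotency, was 12.97, 12.69 and 12.76 in fetal and 12.13, 12.52 and 12.38 in adult basal cells. The arrays did not overlap, but a difference of 0.46 (adjusted p = 0.020) was under the fold limit. Klf10, an early target of TGF-beta, was 11.79, 11.49 and 11.16 in fetal and 12.14, 12.19 and 12.50 in adult basal cells. All adult basal arrays were brighter for Klf10, by 0.80 on average on the log2 scale (adjusted p = 0.0067), again under the limit.

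The DUSP phosphatases close the loop by removing phosphate from both the threonine and the tyrosine of active MAP kinases. Dusp5 and Dusp6, which act on ERK in the nucleus and in the cytoplasm, were called higher in fetal cells with both adjustments. The other 3 were not called, and the median of the 5 was 0.71. Dusp6 was 16.06, 15.89 and 15.92 in fetal and 13.65, 13.76 and 13.67 in adult basal cells. It was 4.81-fold higher in fetal cells (log2 fold change 2.27, SE 0.10, Holm-adjusted p = 0.0012). Dusp5 was 9.02, 8.46 and 8.64 against 6.38, 6.18 and 6.20. It was 5.49-fold higher in fetal cells (log2 fold change 2.46, SE 0.16, Holm-adjusted p = 0.017), and its log2 fold change was 1.80 with the normexp background correction.

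Dusp1, the nuclear phosphatase that acts mainly on p38 and JNK and is a common marker of dissociated tissue, was 12.08, 12.32 and 12.29 in fetal and 12.18, 12.54 and 12.22 in adult basal cells. The groups overlapped, with a difference of -0.09 (95% interval -0.40 to 0.23, adjusted p = 0.61), and the sign turned, to 0.03, without adult basal replicate 2. Dusp2 differed by 0.28 (95% interval -0.14 to 0.70, adjusted p = 0.22) and also overlapped. Dusp4, a nuclear ERK and JNK phosphatase, was 10.95, 10.86 and 10.85 against 10.08, 10.31 and 10.13. All fetal arrays were brighter for Dusp4, with a difference of 0.71 (adjusted p = 0.00078) that was under the fold limit. In the stretch of Dusp5 (chr19:53529015-53529122, plus strand) the capitals mark an NF-kB motif that overlaps the first of 2 adjoining CArG boxes, and in that of Dusp1 (chr17:26508568-26508655, minus strand) a CRE.

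Dusp5: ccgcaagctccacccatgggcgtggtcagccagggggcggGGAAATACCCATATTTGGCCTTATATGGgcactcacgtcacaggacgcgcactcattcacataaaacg
Dusp1: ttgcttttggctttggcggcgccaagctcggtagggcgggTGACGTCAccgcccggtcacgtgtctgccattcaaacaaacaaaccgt

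**Figure D3:**
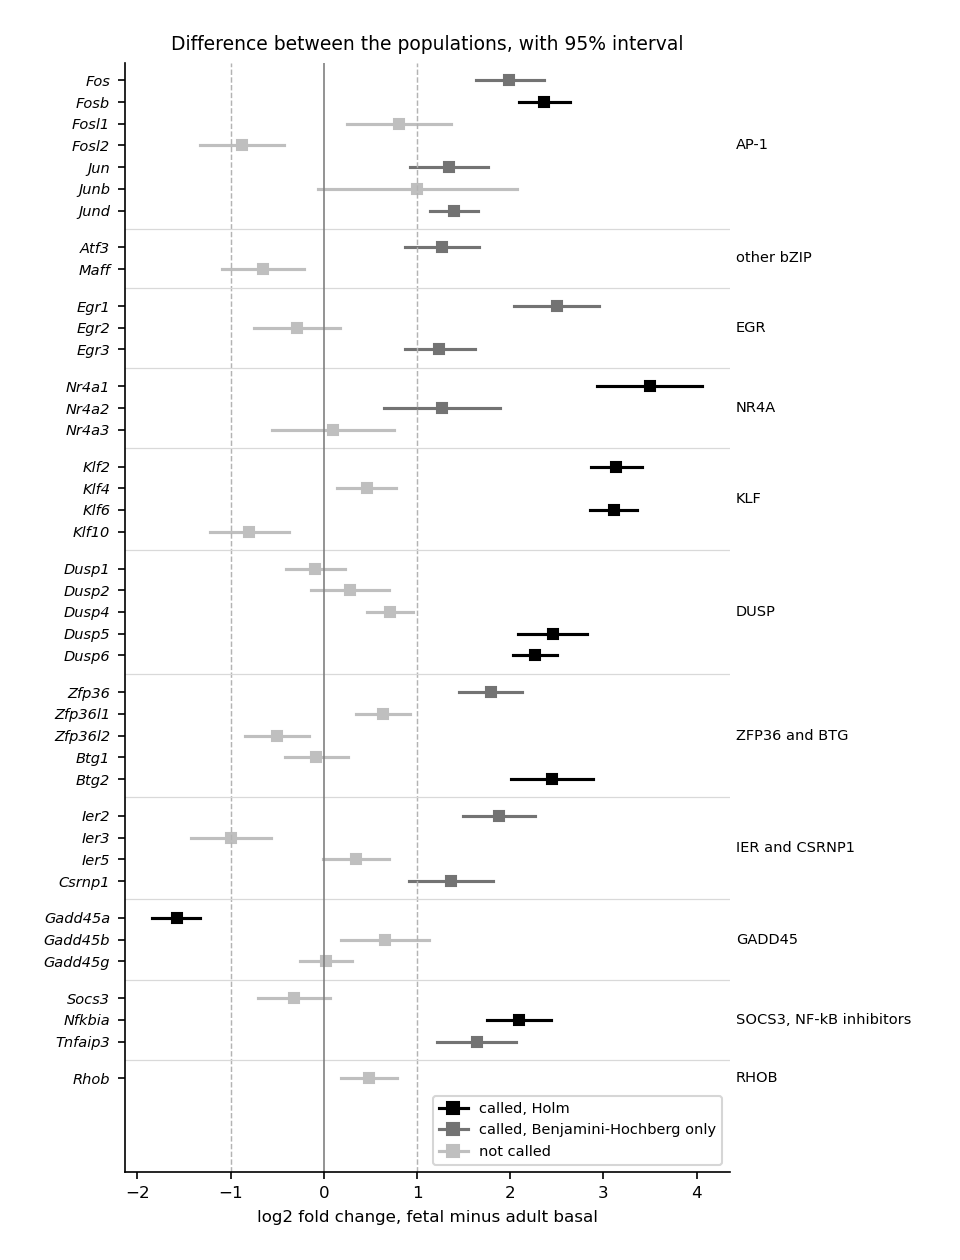
Squares give the log2 fold change, fetal minus adult basal, of each member's main probe and lines its 95% interval from limma, by subfamily; dashed lines mark the fold limit of 1. Black members were called with Holm adjustment (9), dark gray ones with Benjamini-Hochberg adjustment only (11) and light gray ones with neither (20).

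ZFP36 proteins bind AU-rich elements and speed the decay of many immediate early and cytokine mRNAs, and BTG proteins recruit the deadenylase complex. Btg2 was 13.13, 13.38 and 13.41 in fetal cells and 10.46, 11.06 and 11.06 in adult basal cells. It was 5.47-fold higher in fetal cells (log2 fold change 2.45, SE 0.19), just within the Holm limit (adjusted p = 0.049). Zfp36 (tristetraprolin) was 11.51, 11.46 and 11.85 against 9.71, 10 and 9.74. Its difference of 1.79 (SE 0.15) was called with Benjamini-Hochberg adjustment (adjusted p = 3.5e-05) and missed with Holm adjustment (adjusted p = 0.078). The paralogs were not called with either adjustment. Zfp36l1 differed by 0.64 (adjusted p = 0.0029) and Zfp36l2 by -0.50 (adjusted p = 0.019), each without overlap and under the fold limit. Btg1, the antiproliferative paralog of Btg2, differed by -0.08 (95% interval -0.42 to 0.26, adjusted p = 0.65), whereas its second probe gave 0.50 (adjusted p = 0.037), so its direction is uncertain. Capitals mark the CRE of Btg2 (chr1:134079274-134079361, minus strand) and the CArG box of Zfp36 (chr7:28379237-28379326, minus strand).

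Btg2: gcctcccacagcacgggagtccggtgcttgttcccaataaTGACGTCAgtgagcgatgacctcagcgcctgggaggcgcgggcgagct
Zfp36: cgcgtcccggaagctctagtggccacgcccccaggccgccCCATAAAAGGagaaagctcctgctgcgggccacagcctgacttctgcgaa

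Both members that inhibit NF-kB, Nfkbia and Tnfaip3, were called higher in fetal cells with Benjamini-Hochberg adjustment, and Socs3, an inhibitor of cytokine signalling, was not called. Nfkbie, a related NF-kB inhibitor outside the 40, differed by -0.25 with overlapping groups (adjusted p = 0.27). Nfkbiz, also outside the 40, was called higher in fetal cells (2.08, Holm-adjusted p = 0.017). Nfkbia, which encodes the inhibitor that holds NF-kB in the cytoplasm and is itself an NF-kB target, was 15.30, 15.60 and 15.42 in fetal and 13.49, 13.09 and 13.46 in adult basal cells. It was 4.28-fold higher in fetal cells (log2 fold change 2.10, SE 0.15, Holm-adjusted p = 0.027). Tnfaip3, which encodes the ubiquitin-editing protein A20, was 12.78, 13.19 and 13.23 against 11.15, 11.47 and 11.68. Its difference of 1.64 (SE 0.18) was called with Benjamini-Hochberg adjustment (adjusted p = 0.00016) and not with Holm adjustment (adjusted p = 0.56). Socs3, the STAT3-induced inhibitor of JAK kinases, was 13.89, 13.99 and 14.34 in fetal and 14.59, 14.15 and 14.45 in adult basal cells. The groups overlapped, with a difference of -0.32 (95% interval -0.71 to 0.07, adjusted p = 0.14). Both NF-kB inhibitors hold an NF-kB motif in capitals below, Nfkbia at chr12:55492648-55492716, minus strand and Tnfaip3 at chr10:19015411-19015462, minus strand; the motif was searched on both strands, and these copies read as its reverse complement.

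Nfkbia: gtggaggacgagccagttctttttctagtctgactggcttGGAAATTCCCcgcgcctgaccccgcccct
Tnfaip3: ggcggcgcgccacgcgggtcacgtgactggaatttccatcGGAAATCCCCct

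Members with the CRE or the CArG box included called and uncalled genes. Of the 3 with a CRE, Btg2 differed by 2.45, Dusp1 by -0.09 and Maff by -0.65. Of the 3 with a CArG box, Dusp5 differed by 2.46, Zfp36 by 1.79 and Egr2 by -0.29. The 3 with the NF-kB motif, Dusp5 (2.46), Nfkbia (2.10) and Tnfaip3 (1.64), were all called with Benjamini-Hochberg adjustment, but that motif was chosen after the values were seen and is a description only. Of the 3 with TGANTCA, Csrnp1 differed by 1.37, Tnfaip3 by 1.64 and Zfp36l1 by 0.64.

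The GADD45 proteins are small stress sensors that bind MAP kinase kinase kinases and the replication clamp. They had the lowest median of the subfamilies with 3 or more members, 0.02, and Gadd45a was the member furthest in the adult direction. Gadd45a, a p53 target, was 11.26, 11.19 and 11.01 in fetal cells and 12.76, 12.79 and 12.65 in adult basal cells. It was 3.00-fold higher in adult basal cells (log2 fold change -1.58, SE 0.11, Holm-adjusted p = 0.027). Gadd45b, induced by NF-kB and TGF-beta, was 12.91, 13.43 and 13.19 against 12.37, 12.29 and 12.88. Its fetal arrays were all brighter, by 0.66 (adjusted p = 0.023), under the fold limit. Gadd45g overlapped, with a difference of 0.02 (95% interval -0.26 to 0.30, adjusted p = 0.89).

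The IER genes share a name for their kinetics rather than a protein family. Ier2 was 10.28, 10.55 and 10.79 in fetal and 8.79, 8.43 and 8.76 in adult basal cells. It was called with Benjamini-Hochberg adjustment (1.88, adjusted p = 5.4e-05) and not with Holm adjustment (adjusted p = 0.14). Csrnp1, a nuclear protein induced by AXIN1, was 14.52, 14.31 and 14.53 against 12.67, 13.38 and 13.22, a difference of 1.37 (Benjamini-Hochberg-adjusted p = 0.00059). Ier3, an apoptosis and NF-kB modulator, was 13.60, 13.46 and 13.89 in fetal and 14.32, 14.75 and 14.87 in adult basal cells. All its adult basal arrays were brighter, and its difference of -1.0 (adjusted p = 0.0022) fell just short of the fold limit, which it passed in 5 of 16 alternative fits, from 75th percentile normalization and the deposited values (-1.01 each) to the fits without fetal replicate 3 (-1.12) and without adult basal replicate 1 (-1.16). Ier5 was ambiguous: its brighter probe differed by 0.35 (adjusted p = 0.083) with overlapping groups, and its other probe by -0.85 (adjusted p = 0.00017) with all adult basal arrays brighter.

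Rhob, a short-lived small GTPase of endosomes and actin, was 10.27, 9.97 and 10.35 in fetal and 9.78, 9.62 and 9.71 in adult basal cells. Its difference was 0.49 (adjusted p = 0.012) by that probe and 1.37 (adjusted p = 0.00045) by a dimmer one, of which only the second was past the fold limit.

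**Figure D4:**
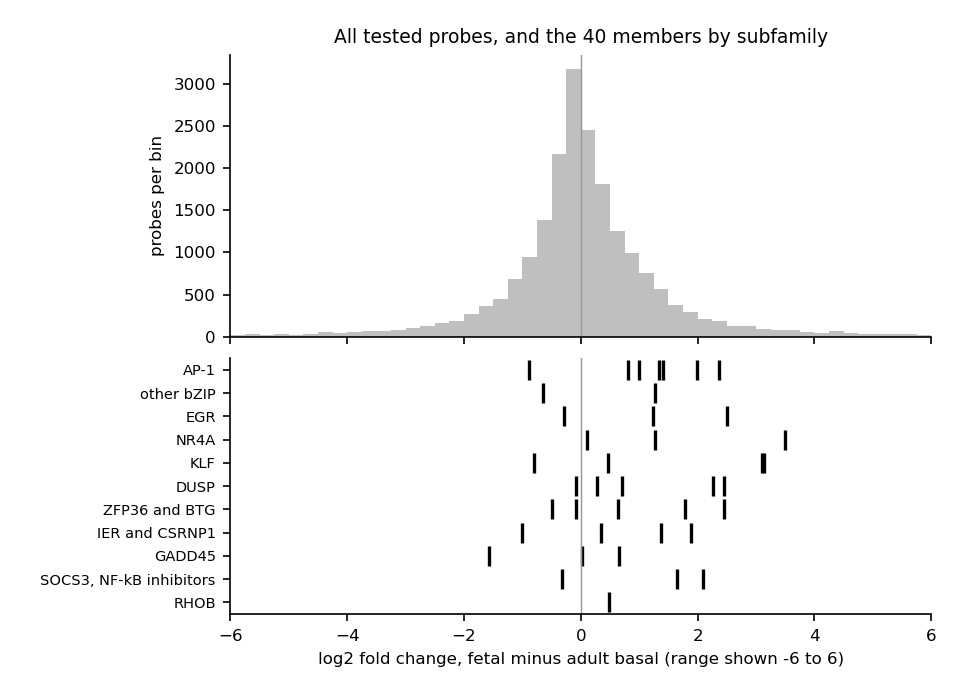
The upper panel is a histogram of the log2 fold change, fetal minus adult basal, of the tested probes between -6 and 6, in bins of 0.25; the lower panel marks each of the 40 members on the same axis, 1 row per subfamily. The members have a median of 0.91 against -0.03 for all tested probes, and they range from -1.58 (Gadd45a) to 3.50 (Nr4a1).

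Other genes that respond early to signals, outside the 40, moved in both directions. Of 39 such genes, all tested, 16 (41.0%) were called higher in fetal and 8 (20.5%) higher in adult basal cells with Benjamini-Hochberg adjustment. The shares of all probes were 16% and 14.0%. With Holm adjustment 8 (20.5%) and 2 (5.13%) were called, beside 5.92% and 5.18% of all probes, so the adult share was about that of all probes. The median of the 39 was 0.35. The 4 with the most extreme differences among the Holm calls were Hes1, a Notch-responsive repressor (4.78), Phlda1 (3.90) and the neutrophil chemokines Cxcl1 (3.57) and Cxcl2 (3.49). Among the Benjamini-Hochberg calls alone, Egr4, a relative of the EGR members, differed by 7.36 (adjusted p = 4.7e-05; 5.27 with normexp) and Ereg, an EGF receptor ligand, by -3.64 (adjusted p = 0.00020; -1.85 with normexp). Both are named after their values were seen, and each passed the low-signal filter through its brighter population only, with 1 of 3 arrays of the other not well above background. Hes1 was 11.18, 11.28 and 11.08 in fetal and 6.57, 6.52 and 6.11 in adult basal cells. The 2 Holm calls in the adult direction were Ccn2, a matricellular target of YAP and TGF-beta (-2.92), and Ppp1r15a, the stress-induced phosphatase subunit GADD34 (-2.0); these and Ccn1 are named here after their values were seen. Ccn2 was 14.31, 14.42 and 14.18 in fetal and 17.03, 17.29 and 17.36 in adult basal cells, and its paralog Ccn1 differed the other way, by 2.04 (Holm-adjusted p = 0.0039).

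Factors that carry the signal to these genes were called in both directions, beside 16% and 14.0% of all probes. Of 13 SRF, TCF, MRTF and CREB regulators none was called by limma with Holm adjustment, and the median was -0.14. At any fold 9 had an unadjusted p under 0.05, a limit that most of all tested probes also passed. With Benjamini-Hochberg adjustment 2 (15.4%) were called higher in fetal and 2 (15.4%) in adult basal cells. They were Elk3 (1.23) and Crem (1.19) on the fetal side and the MRTF gene Mrtfa (-1.17) and the CREB coactivator Crtc3 (-1.01) on the adult side. Crtc3 kept this call in 11 of 16 alternative fits and was under the fold limit with slide as a block (-0.96). A dimmer probe of Crtc3 (-0.78) was not called. Of 26 MAP kinase cascade genes, 2 (7.69%) were called in each direction with Benjamini-Hochberg adjustment. Map2k6 (4.34, Holm-adjusted p = 0.0012), which encodes a kinase of p38, and the chromatin kinase Rps6ka5 (2.31, adjusted p = 0.0012) were higher in fetal cells, and Map2k1, which phosphorylates ERK, was lower (-1.86, adjusted p = 0.012). Of 10 NF-kB subunits and kinases tested, 6 had an unadjusted p under 0.05, again a limit that most of all tested probes passed. None was called with Holm and 1 each way with Benjamini-Hochberg adjustment. These 2 were Relb (-1.05) and Rel, which was under the background limit on each adult array and was at least 5.36-fold higher in fetal cells (adjusted p = 0.00020). Rel passed the low-signal filter through its fetal signal only.

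Relatives of the members outside the list were mixed in direction. Of 8 further DUSP genes 3 (37.5%) were called higher in fetal cells with Benjamini-Hochberg adjustment and 1, Dusp10 (3.00), with Holm adjustment, with a median of 0.25. Of 11 further KLF genes tested 1 was higher in fetal cells, Klf5 (2.12), and 3 (27.3%) in adult basal cells, among them Klf15 (-4.19); Klf5 and Klf15 were also called with Holm adjustment, and the median was -0.55. Of 10 further AP-1 partners tested, Batf (1.69) was higher in fetal and 2 (20%) were higher in adult basal cells, and the median was -0.76. Heat shock genes, which also respond to handling, had a median of 0.56. Of 12 tested 1 (8.33%), Hspe1 (1.48), was called higher in fetal cells with Benjamini-Hochberg adjustment. By that adjustment 16% of all probes were called on the fetal and 14.0% on the adult side.

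**Figure D5:**
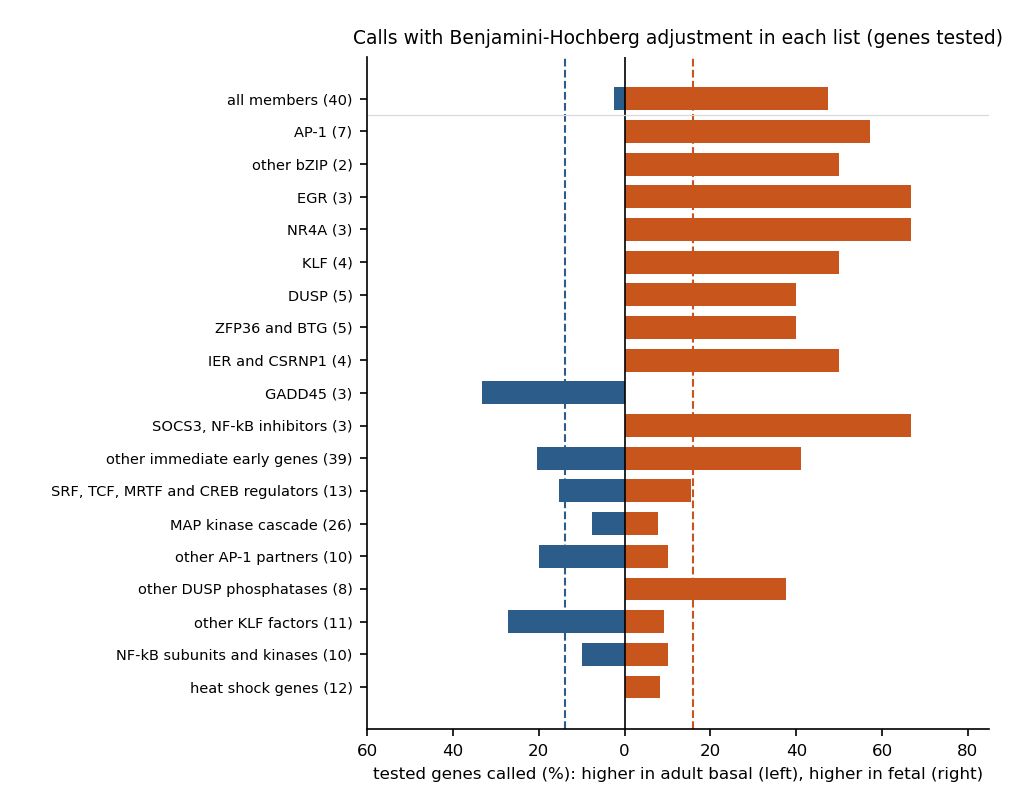
Bars give the percent of tested genes in each list (their number in parentheses) that were called with Benjamini-Hochberg adjustment, higher in fetal cells to the right and in adult basal cells to the left; dashed lines mark the shares over all tested probes, 16% and 14.0%. The 40 members reach 47.5% to the right and 2.50% to the left, and the GADD45 genes are the 1 subfamily with a bar to the left only.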

How the data were processed

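Each of 3 fetal and 3 adult basal RNA samples was hybridized to 1 array, and groups were taken from the sample labels. The authors deposited 2 kinds of values, namely spot intensity from Feature Extraction 11.0.1.1, background-subtracted within the array and not normalized between arrays, and a table of log2 values that they quantile normalized in GeneSpring. The kit named for labelling differs between the labels (Low Input Quick Amp) and the study's methods (its whole-transcript form).

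Processed intensity was taken to log2. Control spots and spots marked as outliers (104 to 326 per array) were left out, repeated spots were averaged, and quantile normalization was applied over the 6 arrays. Probes were named by matching their accession to a RefSeq gene table of GRCm38.p6, used for names only because the array was designed on mm9. Of 55681 probes, 27229 matched 20656 genes. Probes in the lowest of 3 k-means clusters in both populations (cut at 5.95) were removed, which left 20442 probes of 15730 genes. Differences were fitted with limma 3.58.1 in R 4.3.3 (lmFit and eBayes) on all 6 arrays. The main probe of a gene was the one with the highest mean over the 6 arrays. Named genes were all 40 members and, from each other list, up to 4 genes with the largest absolute fold change among the called ones, with the defining and brightest markers of each cell type list. Genes outside this rule, among them Nfkbie and Nfkbiz, were also named. The members and lists were chosen with earlier results of these data known. A 3 against 3 exact permutation test cannot give a p below 0.10, so calls rest on limma. The share of probes well above background ranged from 76.4% to 83.3%, none was saturated, and the number of arrays limits the precision. Where no array of a population was well above background, the fold is a bound against the lowest signal well above background on each array or the probe's own, whichever was higher. Python 3.11.15 (pandas 2.3.3, matplotlib 3.10.9) was used for tables and plots. The fit was tested on simulated data, of which no outcome is given here.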

Additional observations from a re-analysis of the deposited data

How the results depend on the processing

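Besides the fit reported, Benjamini-Hochberg adjustment and 17 other alternatives were tried: 75th percentile normalization, the deposited log2 values, normexp background correction (offset 50), an offset of 16 before log2, the low-signal filter left out or replaced by one on the well-above-background flag, all probes whether matched or not, a variance trend with robust estimation, slide and replicate number as blocks, the mean of a gene's probes, and each array left out. Over the 680 pairs of a member and 1 of these 17, 608 kept their direction and their side of the Holm limit, 45 lost the call, 16 gained it and 11 turned sign, in 5 members; Benjamini-Hochberg adjustment added 11 calls.

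The 9 members called with Holm adjustment became 4 without a low-signal filter and 5 with all probes, both of which test more probes, and between 3 and 7 with 1 array left out. They rose to 13 with normexp, with the offset of 16 and with the variance trend, and to 11 with probes of a gene averaged. The 2269 probes called became 2600 with normexp, 2813 with the offset, 3355 with the variance trend, 1182 without the filter, 1303 with the replicate block, between 950 and 2014 with 1 array left out and 6130 with Benjamini-Hochberg adjustment. With slide as a block 6 members and 1541 probes were called. Same-numbered arrays of the 2 populations deviated together by r = -0.03, 0.09 and 0.05, and the other pairs by between -0.13 and 0.12. Replicates 1 of both populations shared a slide, as did replicates 2, and whether same-numbered samples were prepared together was not tested. With the replicate block 6 members were called with Holm and 21 with Benjamini-Hochberg adjustment. The 20 members called with Benjamini-Hochberg adjustment were between 19 and 22 under each alternative, and the median of 0.91 was between 0.70 (normexp) and 1.04 (slide block).

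The sign turned in members near 0 and in Ier5, whose probes differed in sign (0.35 and -0.85), and the cause was not tested. It turned in Gadd45g (-0.0023 with 75th percentile normalization, -0.05 with slide as a block, -0.03 without fetal replicate 3, -0.01 without adult basal replicate 1, -0.03 without adult basal replicate 3), Nr4a3 (-0.02 with slide as a block, -0.16 without adult basal replicate 1), Btg1 (0.0041 without fetal replicate 3, 0.21 as the mean of its probes), Dusp1 (0.03 without adult basal replicate 2) and Ier5 (-0.25 as the mean of its probes). With 1 array left out, Gadd45g was between -0.03 and 0.11, Nr4a3 between -0.16 and 0.42, Btg1 between -0.19 and 0.0041 and Dusp1 between -0.15 and 0.03. Differences against dim signals shrank with normexp and kept their sign, for Hes1 to 3.99, Cxcl2 to 2.72, Map2k6 to 3.33, Rps6ka5 to 1.52, Dusp10 to 2.27, Klf15 to -2.90, Elf5 to 6.10, Myh11 to -7.47, Pdgfrb to -2.93 and Cdh5 to -1.38.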
